A study of Mus musculus with 30 samples.

Results

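Satellite glia are the flat cells that wrap each sensory neuron of a dorsal root ganglion. They were followed here through 9 genes by which they are commonly recognised: Fabp7, Apoe, Kcnj10, Glul, Slc1a3, Gja1, Cdh19, Ednrb and Gfap. The genes were taken by symbol from a table of 56686 genes, in all 30 libraries of the study. All 9 passed the filter on low values and were among the 25434 genes tested.

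The sheath of satellite glia shares a narrow cleft with the neuron it encloses. From there the cells take up potassium and transmitter, convert glutamate to glutamine, carry lipids and are joined to each other by gap junctions. After nerve injury and in some models of neuropathic pain, satellite glia are known for more Gfap, for closer coupling through connexin 43 and for less of the channel Kir4.1.

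The animals were wild-type C57BL/6J males. They were given saline, or CVAD (a regimen that combines cyclophosphamide, vincristine, doxorubicin and dexamethasone), or any 1 of its 4 drugs alone. The mice were perfused with RNAlater, and ganglia of lumbar levels 3 to 5 from both sides were taken on day 2 or day 8. Day 2 had saline, CVAD, cyclophosphamide and dexamethasone, and day 8 had these and also vincristine and doxorubicin, with 3 libraries in each of the 10 groups. Doses, ages and the number of animals behind a sample are not given in the labels, so p-values measure only the spread between these samples. Expression was measured as TPM, a transcript abundance scaled for gene length and for the total of each library.

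All 11 neuron genes of a list of sensory neuron markers were above 0 in every library, as were 15 of 15 further satellite glia genes such as Sox10 and Fbxo2. The share of TPM in protein-coding genes was 60.5 to 73.8%. Genes of other tissues varied widely: 6 skeletal muscle genes summed to 7.31 to 725 TPM and 13 spinal cord genes to 31.8 to 160.1 TPM. Of the spinal cord genes, Agt and Mlc1 had means of 11.8 and 21.1 TPM and were above 0 in every library. The library of lowest sum, saline day 8 replicate 2, had Mobp and Mog at 0. In bulk tissue, fewer satellite glia and less RNA per cell cannot be told apart. Read totals were not given, and the depth behind a value is therefore unknown.

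To show the genes as sequence, the 250 bases upstream of the RefSeq start site are printed for 5 members. Fabp7 is shown with Kcnj10, Ednrb and Apoe, the members whose levels followed it most closely over the libraries, and Gfap because it stood apart. The windows are from GRCm38.p6. They lie at chr10:57784673-57784922 (plus strand) for Fabp7, chr1:172340960-172341209 (plus) for Kcnj10, chr14:103843702-103843951 (minus) for Ednrb, chr7:19699189-19699438 (minus, the first of 3 listed starts) for Apoe and chr11:102897201-102897450 (minus) for Gfap. Capitals mark matches, on either strand, to the letters ACAAAG (bound by SOX factors), AGAACA (bound by the glucocorticoid receptor) or TTCNNNGAA (bound by STAT factors). No match overlapped another.
Fabp7: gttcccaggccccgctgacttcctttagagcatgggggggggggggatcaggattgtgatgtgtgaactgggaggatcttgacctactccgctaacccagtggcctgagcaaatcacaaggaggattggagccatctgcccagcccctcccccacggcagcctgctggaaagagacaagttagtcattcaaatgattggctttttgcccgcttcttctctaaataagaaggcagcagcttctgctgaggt
Kcnj10: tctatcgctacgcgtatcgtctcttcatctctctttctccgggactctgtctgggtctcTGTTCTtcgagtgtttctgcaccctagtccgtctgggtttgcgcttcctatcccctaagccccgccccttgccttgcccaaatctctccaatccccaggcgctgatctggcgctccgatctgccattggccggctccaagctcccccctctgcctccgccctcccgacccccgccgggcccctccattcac
Ednrb: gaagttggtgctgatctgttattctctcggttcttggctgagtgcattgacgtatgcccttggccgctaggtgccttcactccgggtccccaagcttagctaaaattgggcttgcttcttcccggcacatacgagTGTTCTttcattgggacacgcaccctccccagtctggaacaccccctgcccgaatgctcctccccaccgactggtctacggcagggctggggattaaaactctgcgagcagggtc
Apoe: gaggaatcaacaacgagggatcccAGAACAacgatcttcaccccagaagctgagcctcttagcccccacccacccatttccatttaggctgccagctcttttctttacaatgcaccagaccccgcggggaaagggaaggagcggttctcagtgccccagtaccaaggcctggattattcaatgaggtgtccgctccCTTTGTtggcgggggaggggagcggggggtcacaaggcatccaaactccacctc
Gfap: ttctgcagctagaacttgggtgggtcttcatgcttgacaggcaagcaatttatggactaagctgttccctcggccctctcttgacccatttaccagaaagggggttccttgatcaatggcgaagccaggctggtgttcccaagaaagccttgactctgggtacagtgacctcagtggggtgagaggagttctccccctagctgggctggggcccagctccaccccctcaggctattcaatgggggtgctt

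The glucocorticoid receptor letters lay 191 bases upstream of the start in Kcnj10, 115 in Ednrb and 226 in Apoe, and the SOX letters 54 bases upstream in Apoe. Of the other members, Slc1a3 had the glucocorticoid receptor letters at 24 bases and the STAT letters at 96 bases upstream. Windows of Fabp7, Gfap, Glul and Gja1 held none of these letters. A window was found for 8 of the 9 members, all but Cdh19. Of all 32851 windows, 16.5% held ACAAAG, 16.1% AGAACA and 7.02% TTCNNNGAA, so single matches of this kind are common.

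On the TPM scale, Gfap varied far more between libraries than the other 8 genes. Apoe had the highest mean over 30 libraries (202 ± 18.7 TPM, SD), followed by Glul (189 ± 16.2), Fabp7 (147 ± 17.8), Ednrb (71.3 ± 9.82), Cdh19 (71.1 ± 8.92), Gja1 (52.1 ± 5.11), Kcnj10 (50.1 ± 4.74), Slc1a3 (27.4 ± 3.12) and Gfap (11.8 ± 11.2). Neighbours that were not separated in every library were Apoe over Glul (26 of 30), Ednrb over Cdh19 (16 of 30), Gja1 over Kcnj10 (19 of 30) and Slc1a3 over Gfap (28 of 30). Each other step of the order held in 30 of 30 libraries. The coefficient of variation was 8.54% for Glul to 13.8% for Ednrb among 8 members and 94.7% for Gfap. Within groups, the SD of log2(TPM + 1) was 0.130 for Gja1 to 0.209 for Ednrb, and 1.32 for Gfap. The value for Gfap was at percentile 99.7 of 11541 protein-coding genes with a mean of at least 10 TPM. The genes of this set were not matched for level, and Gfap, at a mean of 11.8 TPM, was near its floor. Ednrb (percentile 83.7), Fabp7 (81.6), Cdh19 (80.2) and Slc1a3 (71.7) also varied more than most of these genes. Kcnj10 (54.8), Apoe (53.7), Glul (45.0) and Gja1 (43.5) were nearer the middle.

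**Figure D1:**
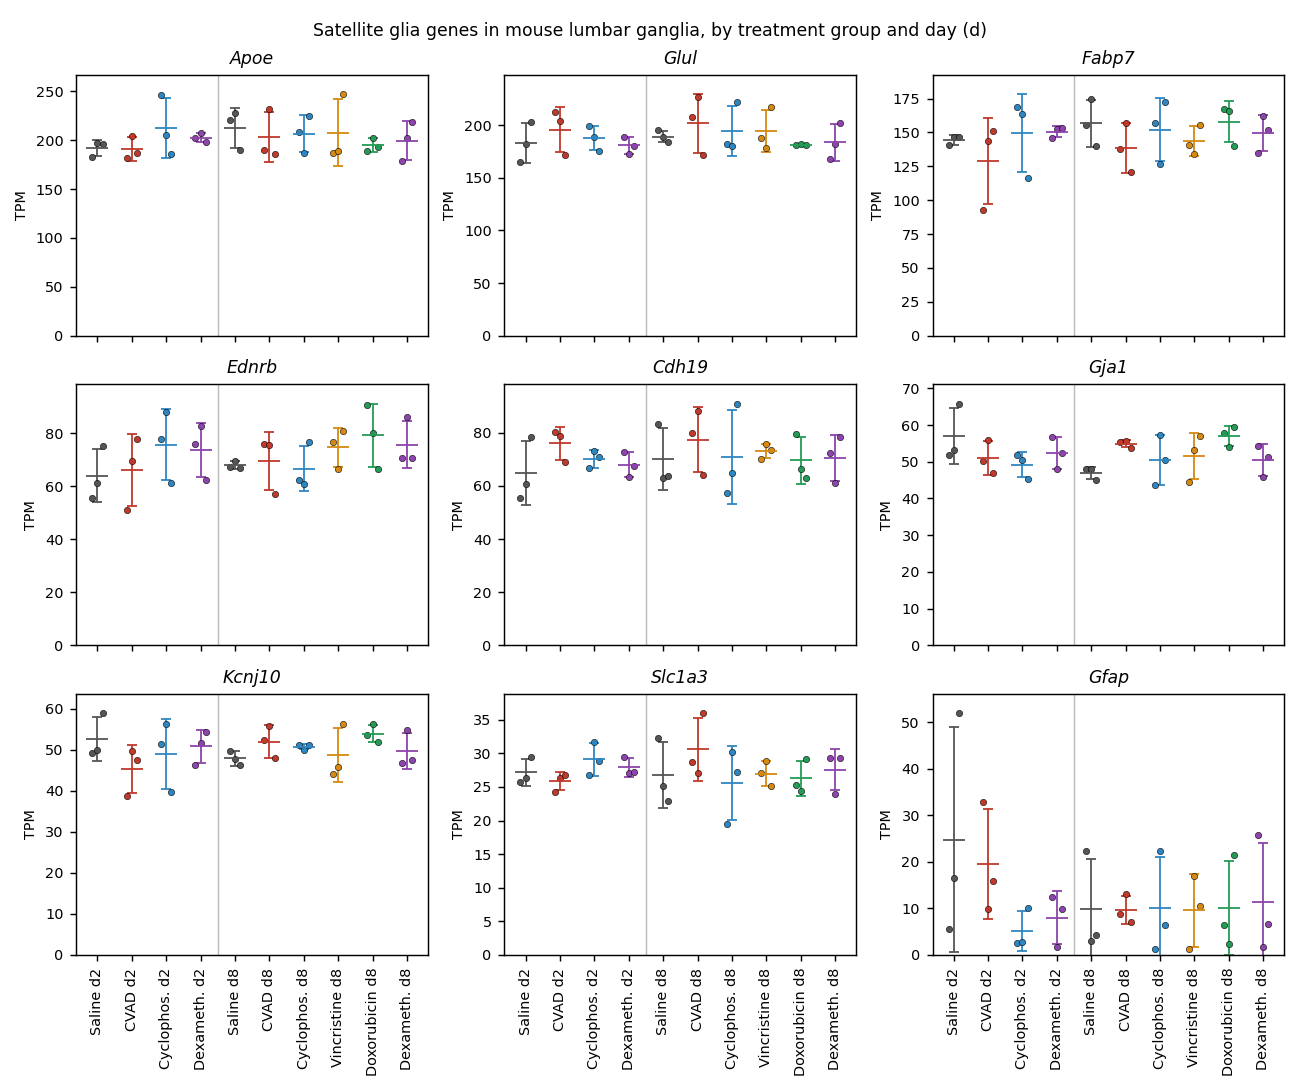
TPM of the 9 genes in each of 30 libraries (points), by drug and day (d2, day 2; d8, day 8), with the mean (horizontal bar) and SD (vertical bar, ending at 0 where it would go below) of 3 libraries. The points of most drug groups overlap those of saline of the same day, and Gfap spans 1.22 to 51.9 TPM.

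The study asks how CVAD and its component drugs act on the ganglion, and each drug was set against saline of the same day. None of the 9 genes passed an adjusted p of 0.05 in limma in any of the 8 comparisons. Few genes of any kind did: 0.0432% of all tested genes passed for CVAD on day 2, 0.0118% for cyclophosphamide on day 2, 0.00393% for dexamethasone on day 2 and 0.00786% for cyclophosphamide on day 8. The share was 0% for CVAD, vincristine, doxorubicin and dexamethasone on day 8. Without adjustment, 2 of the 72 tests of members had a p under 0.05, against 5.36% of the tests over all genes.

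For the 8 members besides Gfap the intervals were narrower than for Gfap in the main model, which had no covariate. Each 95% interval was taken singly, without adjustment for the number of comparisons. The log2 fold changes of these 8 members against saline ran from −0.22 to 0.28. No 95% interval of these estimates went below −0.51 or above 0.56, which is a 0.703-fold to 1.48-fold difference. For Gfap the standard error was 0.98, and its limits ran from −3.82 to 2.42. In CVAD on day 8 the median over the 9 members was 0.11 beside 0.017 over all tested genes. There 7 members were higher and 2 lower, and 54.2% of all tested genes were higher. In CVAD on day 2 the median was −0.0067 beside 0.069, with 4 members higher and 5 lower, and 65.9% of all tested genes were higher.

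**Figure D2:**
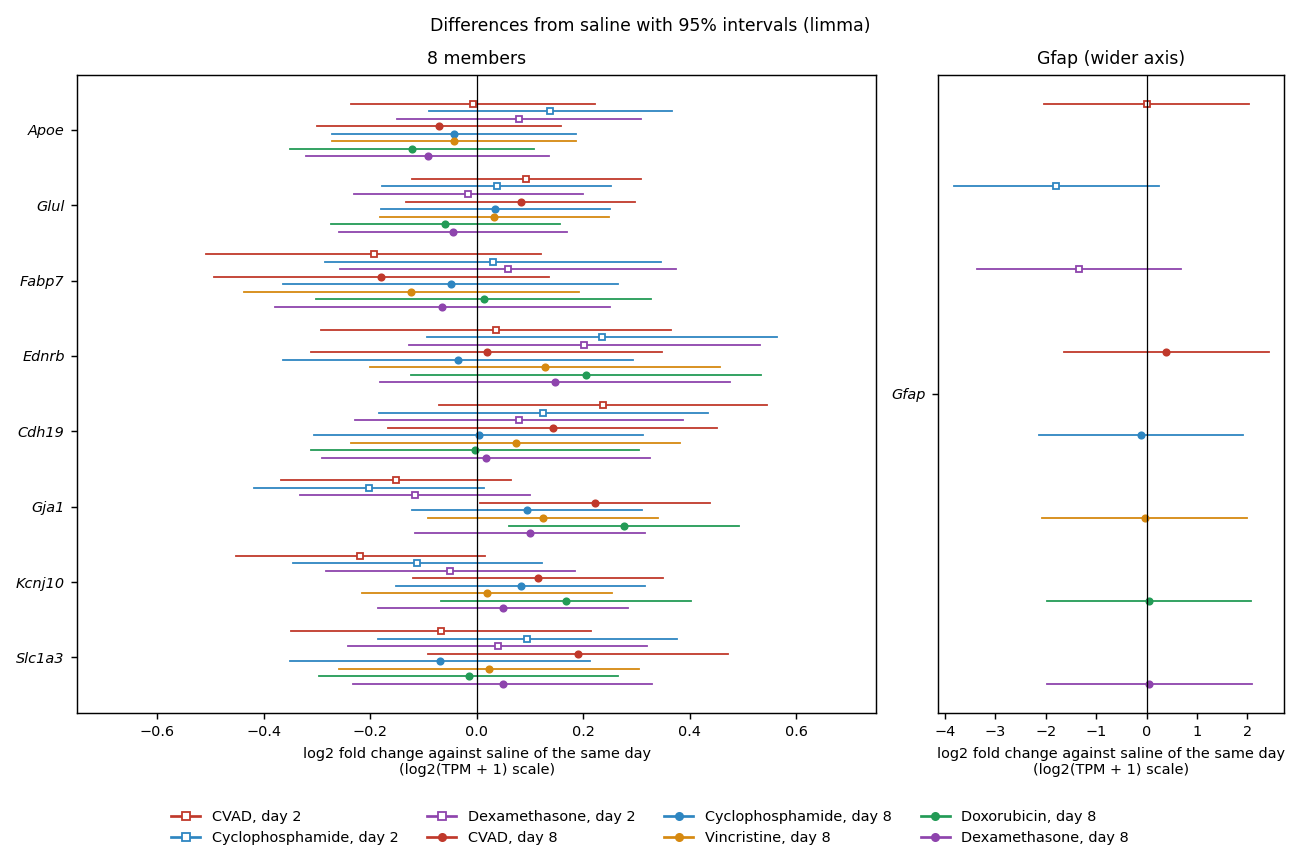
Log2 fold change of each gene against saline of the same day, with the 95% interval from limma, for 8 comparisons. The 8 members besides Gfap stay between −0.51 and 0.56 at their limits, while the intervals of Gfap are several log2 units wide.

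The 3 libraries of a drug lay wholly above or below the 3 of saline in 8 of the 72 cases, 6 higher and 2 lower, against 9.01% of all genes and comparisons. On day 2 these were Gja1 in cyclophosphamide (lower) and Apoe in dexamethasone (higher). On day 8 they were Gja1 in CVAD and in doxorubicin, Kcnj10 in cyclophosphamide and in doxorubicin and Ednrb in dexamethasone (all higher), and Glul in doxorubicin (lower).

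Neither lipid carrier passed in any comparison. Fabp7 (ENSMUSG00000019874, chromosome 10, 57660977 to 57664546) encodes the brain fatty acid binding protein, an early and lasting mark of this lineage. On day 2 it was at 140.3, 147 and 147 TPM in saline and at 92.7, 143 and 151 in CVAD, where replicate 1 was the lowest library of the study and the others lay near saline. On day 8 it was at 155, 175 and 139.9 TPM in saline and at 138, 157 and 120.4 in CVAD, and the groups overlapped. Over both days together the log2 fold change in CVAD was −0.19 ± 0.11 (SE, limma, adjusted p = 0.903).

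Apoe (ENSMUSG00000002985, chromosome 7, 19430034 to 19433113) encodes apolipoprotein E, which carries cholesterol between cells. It was at 183, 197 and 196 TPM in saline and at 203, 207 and 198 in dexamethasone on day 2. The lowest dexamethasone library was thus above the highest of saline, by less than 2 TPM. The log2 fold change was 0.079 ± 0.11 (limma, adjusted p = 0.999). On day 8 the order was the other way, with means of 213 ± 20.3 TPM in saline and 199.7 ± 19.97 in dexamethasone (SD, n = 3).

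The genes for clearing potassium and glutamate did not pass either. Kcnj10 (ENSMUSG00000044708, chromosome 1, 172168777 to 172201652) encodes Kir4.1, the potassium channel through which satellite glia buffer the cleft. On day 2 it was at 49.3, 49.97 and 58.99 TPM in saline and at 38.6, 49.8 and 47.4 in CVAD. On day 8 it was at 49.8, 47.8 and 46.2 TPM in saline and at 52.4, 55.8 and 47.98 in CVAD. CVAD replicate 1 was lowest and saline replicate 3 highest on day 2, and on day 8 the groups overlapped.

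In log2 terms Kcnj10 in CVAD differed from saline by −0.22 ± 0.11 on day 2 (limma, adjusted p = 0.650) and by 0.11 ± 0.11 on day 8. The difference between these responses was 0.33 ± 0.16 (adjusted p = 0.574). It was 0.22 without CVAD day 2 replicate 1 and 0.25 without saline day 2 replicate 3. On day 8 Kcnj10 was at 51.1, 50.1 and 51.2 TPM in cyclophosphamide and at 53.6, 56.3 and 52.0 in doxorubicin, all above saline. The estimates were 0.083 ± 0.11 and 0.17 ± 0.11, with an adjusted p of 1 in limma for both.

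Glul (ENSMUSG00000026473, chromosome 1, 153775690 to 153785469) encodes glutamine synthetase, which turns glutamate into glutamine. In doxorubicin on day 8 it was at 181, 182 and 181 TPM, a group of unusually close libraries, just below saline at 195, 188 and 184. The log2 fold change of −0.059 ± 0.10 did not pass (limma, adjusted p = 1). CVAD on day 8 had the highest mean and also the widest spread, at 208, 227 and 171 TPM.

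Slc1a3 (ENSMUSG00000005360, chromosome 15, 8663608 to 8740248) encodes the glutamate transporter GLAST. It was at 32.2, 25.2 and 22.9 TPM in saline and at 28.7, 27.1 and 35.99 in CVAD on day 8, and the groups overlapped. Over all groups it ran from 19.5 TPM in cyclophosphamide day 8 replicate 1 to that CVAD library at 35.99. No comparison of Slc1a3 with saline had a p under 0.05.

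Gja1 (ENSMUSG00000050953, chromosome 10, 56253426 to 56278609) encodes connexin 43, the main gap junction protein of these cells. It gave both unadjusted p-values under 0.05 against saline. On day 8 it was at 47.95, 47.9 and 45.0 TPM in saline, at 55.5, 55.6 and 53.8 in CVAD and at 57.8, 54.1 and 59.4 in doxorubicin. The 3 libraries of each drug were above all 3 of saline. The log2 fold changes were 0.22 ± 0.10 for CVAD (limma, adjusted p = 0.814) and 0.28 ± 0.10 for doxorubicin (adjusted p = 1).

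These comparisons share the saline group of day 8, which had the lowest mean of Gja1 among the 10 groups (46.96 ± 1.69 TPM, SD, n = 3). Saline of day 2 was at 51.9, 53.3 and 65.9 TPM, a range that took in both drug groups of day 8. Within saline, day 8 was below day 2 by a log2 difference of −0.27 ± 0.10 (limma, adjusted p = 0.613). Without saline day 2 replicate 3, which held the highest Gja1 of the study, the difference was −0.16. The CVAD response was 0.37 ± 0.15 higher on day 8 than on day 2 (adjusted p = 0.418), again with these saline groups in it. On day 2 cyclophosphamide libraries were at 51.8, 50.6 and 45.3 TPM, all below saline, with a log2 fold change of −0.20 ± 0.10 (adjusted p = 0.695).

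Gja1 also moved with spinal cord genes. Its correlation with their mean log2 level over 30 libraries was r = 0.602 (permutation p = 0.00041, adjusted p = 0.00185 over 36 relations of members with 4 scores) and rho = 0.552 (permutation p = 0.00185, adjusted p = 0.00606). Leaving out the 2 libraries farthest from the median score gave 0.424. Within groups it was 0.526, on day 2 alone 0.471 and on day 8 alone 0.702, and with all genes rescaled to the protein-coding total it was 0.766. With that mean level as a covariate, the log2 fold changes of Gja1 on day 8 were 0.18 for CVAD and 0.19 for doxorubicin. The spinal cord sums of day 8 were 31.8 to 54.6 TPM in saline, 52.2 to 60.6 in CVAD and 37.6 to 160.1 in doxorubicin. Their part in the result was not tested beyond that covariate. The r of Gja1 was higher with lists for glutamate and potassium handling (0.742) and for gap junctions and purine signalling (0.645). Within groups these were 0.789 and 0.734, and endothelium genes were at 0.711. Fabp7 went opposite to the spinal cord genes (r = −0.458, permutation p = 0.012, adjusted p = 0.0271). Apoe (−0.407, adjusted p = 0.0534) and Ednrb (−0.380, adjusted p = 0.0704) were also negative. In these permutation tests libraries were shuffled freely across groups and days. Members and spinal cord genes also share the scaling of each library, and the p-values take no account of either.

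Cdh19 (ENSMUSG00000047216, chromosome 1, 110816056 to 110905314) encodes a cadherin of the Schwann cell and satellite glia lineage. It had the largest estimate of any member in CVAD on day 2. It was at 55.5, 60.8 and 78.3 TPM in saline and at 80.2, 78.9 and 69.0 in CVAD, with saline replicate 3 inside the CVAD range. The log2 fold change was 0.24 ± 0.15 (limma, adjusted p = 0.739). On day 8 the values were 83.5, 63.0 and 63.7 TPM in saline and 79.8, 88.2 and 64.2 in CVAD, and overlapped.

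Ednrb (ENSMUSG00000022122, chromosome 14, 104052061 to 104081838) encodes the endothelin B receptor, through which endothelins act on glia. On day 8 it was at 67.4, 69.7 and 67.0 TPM in saline and at 70.6, 86.2 and 70.5 in dexamethasone, which lay just above. The log2 fold change was 0.15 ± 0.16, the largest of the members in that comparison (limma, adjusted p = 1). For vincristine on day 8 Ednrb was again the member of largest estimate, 0.13 ± 0.16 (adjusted p = 1), with overlapping values of 76.8, 66.5 and 80.8 TPM.

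Gfap (ENSMUSG00000020932, chromosome 11, 102778162 to 102791738) encodes the intermediate filament of astrocytes, present at a low level in resting satellite glia. It was at 5.66, 16.6 and 51.9 TPM in saline on day 2, the widest range of any group. CVAD on day 2 was at 32.8, 9.93 and 15.9 TPM, cyclophosphamide at 2.64, 2.72 and 10.1 and dexamethasone at 12.5, 1.60 and 9.82. Every drug group overlapped saline. On day 8 saline was at 22.3, 3.01 and 4.28 TPM and CVAD at 8.78, 12.98 and 7.15.

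The largest estimate for Gfap was that of cyclophosphamide on day 2, −1.79 ± 0.98 (limma, adjusted p = 0.715). Dexamethasone on day 2 followed at −1.34 ± 0.98, and CVAD differed by 0.0035 ± 0.98 on day 2 and by 0.39 ± 0.98 on day 8. In the other day 8 groups Gfap ran from 1.25 to 22.3 TPM in cyclophosphamide, 1.22 to 16.9 in vincristine, 2.26 to 21.5 in doxorubicin and 1.71 to 25.8 in dexamethasone. The estimate for cyclophosphamide on day 8 was −0.11 ± 0.98. It turned to 0.74 without cyclophosphamide day 8 replicate 1.

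The level of Gfap followed that of genes of the spinal cord. Its correlation with the mean log2 level of the 11 tested spinal cord genes was r = 0.872 and rho = 0.878 over 30 libraries, each with a permutation p of 1e-05, the smallest that the resampling can give, and an adjusted p of 0.00012. It was 0.884 without the 2 libraries farthest from the median score, 0.902 within groups, 0.927 on day 2 and 0.823 on day 8, and with all genes rescaled to the protein-coding total it was 0.876. As for Gja1, the permutation p-values take no account of groups, days or the scaling shared within a library. The single gene closest to Gfap was Mobp, a protein of the myelin of oligodendrocytes (r = 0.93), ahead of Tmem88b (0.89).

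The spinal cord genes summed to more than 100 TPM in 4 libraries: saline day 2 replicates 2 and 3, CVAD day 2 replicate 1 and doxorubicin day 8 replicate 3. Gfap was at 16.6, 51.9, 32.8 and 21.5 TPM there. Mobp was at 60.1, 67.995, 62.6 and 53.7 TPM in the same libraries and at 0 to 1.74 TPM in the 8 libraries of lowest Gfap. By group, the sum on day 2 was 45.5 to 159.7 TPM in saline, 56.9 to 123 in CVAD, 34.0 to 47.9 in cyclophosphamide and 35.4 to 57.5 in dexamethasone. Of the 13 genes of the list, 11 passed the filter on low values. Aqp4 was listed at 0 in all 30 libraries and Mog in 11, while Agt and Mlc1 were above 0 in every library.

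With the mean level of the spinal cord genes as a covariate, the estimate for Gfap turned its sign in 5 of the 8 comparisons with saline. On day 2 it went from −1.79 to 0.62 for cyclophosphamide and from −1.34 to 0.74 for dexamethasone. On day 8 it went from 0.39 to −0.41 for CVAD, from 0.049 to −1.55 ± 0.47 for doxorubicin and from 0.053 to −0.64 for dexamethasone. The sign was kept for CVAD on day 2 (0.0035 and 0.63), cyclophosphamide on day 8 (−0.11 and −0.85) and vincristine on day 8 (−0.038 and −0.63). None passed with the covariate either. For doxorubicin the limma p was 0.0031 before adjustment and 0.9999 after it. The spinal cord sums of the doxorubicin libraries were 53.5, 37.6 and 160.1 TPM, with replicate 3 far above the rest. The part of that library in the estimate was not tested.

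**Figure D3:**
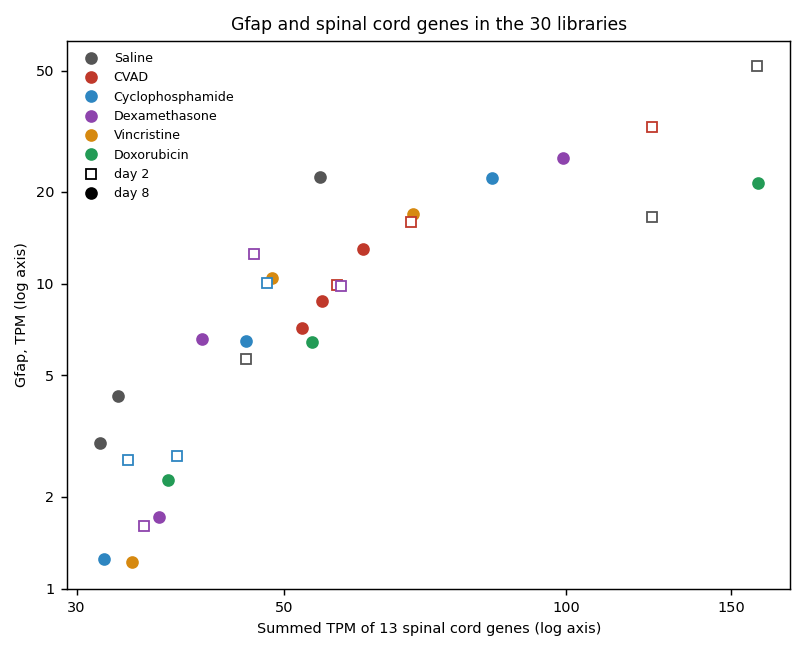
Gfap (TPM, log axis) against the summed TPM of 13 spinal cord genes (log axis) in 30 libraries, coloured by drug, with squares for day 2 and circles for day 8. Libraries with a higher sum of these genes tended to have more Gfap, from 1.22 TPM at a sum of 34.4 to 51.9 TPM at a sum of 159.7.

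None of the 9 genes passed in limma between CVAD and a single drug of the same day, where the background was 0.00393% against cyclophosphamide on day 2 and 0% in the other 5 comparisons. None passed for a drug over both days together (0% for CVAD, cyclophosphamide and dexamethasone). None passed for a difference of responses between the days, with 0.0826% of all genes for CVAD and 0% for cyclophosphamide and dexamethasone. None passed between the days, with 0.00393% within saline and 0.0157% over the 4 arms present on both days. An F test over all 10 groups gave each member an adjusted p of 0.999 and passed 0% of genes. Without adjustment, 2 of 9 members had a p under 0.05 in the CVAD response (8.63% of all genes) and 1 of 9 in saline between the days (6.93%), which are the values of Gja1 and Kcnj10 given above. In the remaining comparisons of this group no member had a p under 0.05.

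The members did not vary as a single block. Over 30 libraries the 36 pairs had correlations of log2(TPM + 1) from r = −0.48 (Fabp7 and Gfap) to 0.71 (Glul and Cdh19), with a median of 0.217. All libraries share 1 scaling per library, so these are given as a description without p. Fabp7 went with Ednrb (r = 0.71, rho = 0.64), Kcnj10 (0.70, rho = 0.57) and Apoe (0.63, rho = 0.78), and Kcnj10 with Ednrb (0.57, rho = 0.50). Within groups these r were 0.78, 0.75, 0.68 and 0.69. Without the 2 libraries farthest from the median of the first gene they were 0.60, 0.44, 0.66 and 0.40, so that Fabp7 with Kcnj10 and Kcnj10 with Ednrb rested in part on such libraries.

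Glul went with Cdh19 (0.71, rho = 0.61) and Apoe (0.61, rho = 0.61), and Gja1 with Gfap (0.60, rho = 0.52). For Slc1a3 the highest value was 0.42, with Gfap. The likeness differed with the scaling of the libraries, and the cause of this was not tested. With TPM rescaled to protein-coding genes alone the median over the 36 pairs was −0.044. On that scale Fabp7 with Kcnj10 was at 0.5975, Fabp7 with Ednrb at 0.59, Glul with Cdh19 at 0.53 and Gja1 with Gfap at 0.65, and Glul with Apoe was at 0.33.

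**Figure D4:**
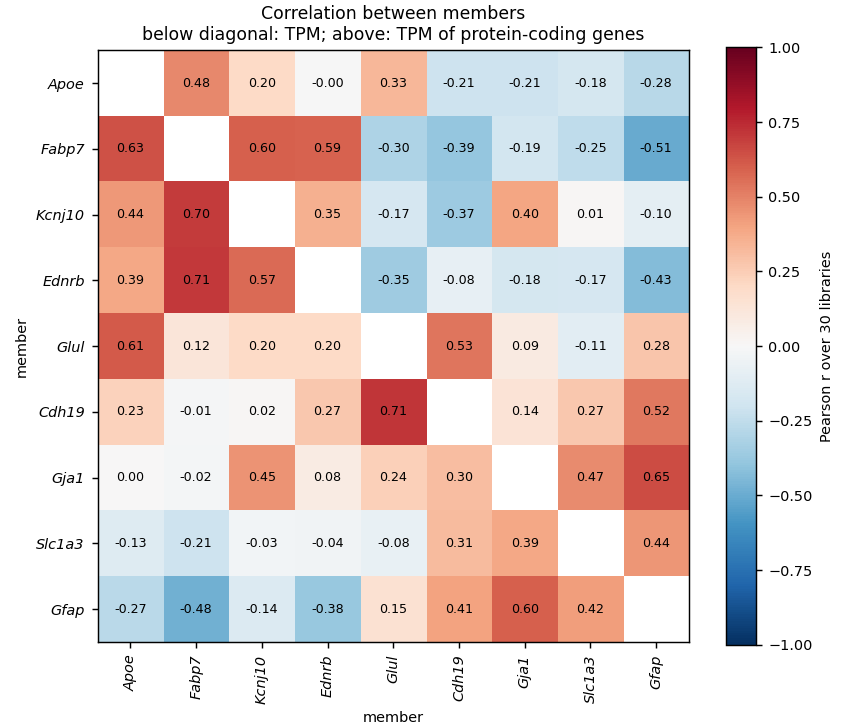
Pearson r of log2(TPM + 1) over 30 libraries for each pair of the 9 genes, as deposited below the diagonal and with TPM rescaled to protein-coding genes above it. The pairs of Fabp7, Kcnj10 and Ednrb are positive on both scales, and Gfap is negative with Fabp7 (−0.48) and positive with Gja1 (0.60).

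With the mean level of the 15 further satellite glia genes, as a description, r was 0.657 for Apoe, 0.619 for Glul and 0.609 for Ednrb. It was 0.591 for Cdh19, 0.571 for Kcnj10, 0.567 for Fabp7 and 0.346 for Gja1. Gfap (0.057) and Slc1a3 (−0.0086) did not follow these genes. Several members also went with genes of other ganglion cells. Apoe (r = 0.819) and Fabp7 (0.789) were highest in libraries with high sensory neuron genes, with Ednrb (0.561), Kcnj10 (0.516) and Glul (0.497) following and Gfap opposite (−0.570). The corresponding rho were 0.83, 0.86, 0.61, 0.48, 0.55 and −0.59. Without the 2 farthest libraries the r were 0.789, 0.755, 0.535, 0.443, 0.471 and −0.571. Members and neuron genes share the scaling of each library, so these values are given as a description without p. With all genes rescaled to the protein-coding total, r was 0.684 for Apoe, 0.7155 for Fabp7, 0.245 for Ednrb, 0.301 for Kcnj10, 0.0876 for Glul and −0.6925 for Gfap. The likeness of Ednrb, Kcnj10 and Glul to neuron genes was thus lower on that scale, and the cause was not tested. Within groups on the deposited scale their r were 0.671, 0.649 and 0.554. The protein-coding share of a library moved with Glul (0.671), Ednrb (0.648), Apoe (0.643) and Cdh19 (0.595), and after the rescaling these were 0.108, 0.363, 0.116 and 0.240. Cdh19 also went with macrophage genes (0.665, and 0.5585 after the rescaling) and, as a description, with the lists for fibroblasts (0.824) and myelinating Schwann cells (0.768).

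The nearest single genes were searched among 12795 protein-coding genes with a mean of at least 5 TPM, over the same 30 libraries. For Fabp7 they were Nefh, a neurofilament subunit (r = 0.87), Lgmn (0.86) and Ppm1j (0.86), and for Apoe they were Klc1, a kinesin light chain (0.90), Dpysl3 (0.88) and Scg3 (0.86). Kcnj10 was closest to Mmd2 (0.80), itself on the list of further satellite glia genes, then Jun (0.78) and Nlgn2 (0.77). Glul was closest to Sf3b1 (0.82), Pik3r1 (0.82) and Gpt2 (0.80), and Cdh19 to Foxo1 (0.90), Prex2 (0.90) and Iqgap2 (0.89). Ednrb was closest to Prss35 (0.87), Sh3pxd2b (0.85) and Nlgn3 (0.85). Gja1 (Dtx1 at 0.71) and Slc1a3 (Dzip1l at 0.76) had weaker neighbours.

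Genes of the same pathways were read beside the members. None of 15 further satellite glia genes passed in any of the 22 comparisons, nor did any of 13 genes of glutamate and potassium handling, 13 of gap junctions and purine signalling, 6 of the endothelin system, 16 of lipid supply or 14 of glial reactivity. In CVAD on day 8 their medians of log2 fold change were 0.0056, 0.082, 0.18, −0.025, 0.033 and −0.055, beside 0.017 over all genes. The gene of smallest p in each was Fbxo2 (−0.16), Kcnj16, a partner subunit of Kir4.1 (−0.32), Gjb6, connexin 30 (0.57), Ece2, an endothelin converting enzyme (−0.10), Nr1h3, the sterol sensor LXR alpha (0.35), and Lcn2, the iron-binding lipocalin of reactive glia and neutrophils (−1.60).

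Lcn2 was at 56.7, 52.8 and 64.5 TPM in saline and at 22.9, 16.2 and 16.9 in CVAD on day 8. The groups were well apart, with a log2 fold change of −1.60 ± 0.38 that missed the threshold (limma, adjusted p = 0.222). The gene is also made by neutrophil precursors. None of the 6 genes of that list passed in the same comparison, where all 6 were lower with a median log2 fold change of −1.90. In the CVAD response, day 8 minus day 2, 4 of them passed as lower (Camp, Cd177, Ngp and Elane). None of the 6 passed there without CVAD day 2 replicate 2, saline day 2 replicate 1, CVAD day 8 replicate 2, CVAD day 8 replicate 3 or saline day 8 replicate 3. The same held with a term for the libraries numbered 1 to 8 in the labels. Their part in the value of Lcn2 was not tested.

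All 11 tested targets of the glucocorticoid receptor were higher in CVAD on day 8, with a median log2 fold change of 0.40, and none passed. Of all tested genes 54.2% were higher there. The 11 targets summed to 611, 898 and 951 TPM in the CVAD libraries of day 8 and to 545, 594 and 729 TPM in saline. The lowest CVAD library thus lay inside the saline range, and saline of day 2 spanned 528 to 940 TPM. In vincristine on day 8, 10 of the 11 were higher (median 0.14), against 54.7% of all genes. In dexamethasone alone, itself a glucocorticoid, 2 of the 11 were higher on day 2 (median −0.21), against 65.3% of all genes. On day 8, 4 of the 11 were higher in dexamethasone (median −0.060), against 43.0% of all genes. Mt2, a metallothionein, had the smallest p, at 40.2, 29.7 and 46.5 TPM in saline and at 90.4, 97.0 and 59.5 in CVAD (1.06 ± 0.25, limma, adjusted p = 0.225). The members whose windows held the receptor letters differed from saline there by 0.11 ± 0.11 (Kcnj10), 0.019 ± 0.16 (Ednrb), −0.071 ± 0.11 (Apoe) and 0.19 ± 0.14 (Slc1a3), and none passed. Glul, a known target of glucocorticoids in other tissues, was at 0.083 ± 0.10. In lists for Schwann cells, sensory neurons, macrophages, fibroblasts, endothelium, spinal cord and muscle no gene passed in any of the 22 comparisons.

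The libraries numbered 1 to 8 in the labels were all of day 2: every library of CVAD and cyclophosphamide and 2 of the 3 of dexamethasone, and none of saline. A term for these libraries rests on dexamethasone day 2 alone, replicates 1 and 2 against replicate 3, and so on the difference from 1 library. Drug and library number cannot be told apart for CVAD and cyclophosphamide on day 2.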

How the data were processed

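Total RNA (60 to 80 ng) of lumbar ganglia was made into stranded libraries after removal of ribosomal RNA, per the labels. StringTie 2.2.1, STAR 2.7.10b and FastQC 0.12.1 are named in the submitters' processing notes, with the builds mm10 and GRCm39 in no stated role. The deposited table holds TPM per gene as the authors computed it, and each column sums to about 1000000. Gene coordinates are the table's. None of the 9 starts equals that of the GRCm38 annotation, the build of the RefSeq promoter windows.

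Groups came from the treatment labels. Genes with at least 1 TPM in at least 3 libraries were tested on log2(TPM + 1), which understates changes of low genes. All 30 libraries entered 1 model in limma 3.58.1 (R 4.3.3), with group means, moderated variances and a trend. P-values (2-sided) received Benjamini-Hochberg adjustment across 25434 genes in each of 22 comparisons and an F test. Correlations with 4 scores used 100000 permutations of the 30 libraries, regardless of group and day. The fit was tested on simulated data.

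Values are given for all members, and fold changes where p was under 0.05, where the member had the largest change against saline, or where groups did not overlap. The last condition, and the values of Fabp7 over both days, of Kcnj10 against saline and of Glul and Slc1a3 in CVAD, were chosen after the values were seen. From each list the gene of smallest p in CVAD on day 8 and any called gene could be named, and for likeness up to 3 nearest genes. The members and lists were chosen with earlier results of these data known. Alternatives were median-ratio scaling, protein-coding genes alone, no filter, a pseudocount of 0.1, a model per day, library weights, a spinal cord covariate and each library left out. A term for libraries 1 to 8 and the omission of 4 libraries rich in spinal cord genes were added after seeing the data. The plots used numpy 2.4.6 and matplotlib 3.10.9.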

Additional observations from a re-analysis of the deposited data

How the results depend on the processing

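No member passed under any of the 9 other settings or with any of the 30 libraries left out in turn: all 414 recomputed counts of called members were 0. Of 249 recomputed fold changes, which cover the members named for a comparison by the rule, 12 turned their direction, all of Gfap and none past the threshold. Over all 9 members and the 8 comparisons with saline, 15 of 72 estimates turned their sign with the spinal cord covariate: 5 of Gfap, 3 of Fabp7, 2 each of Slc1a3, Cdh19 and Ednrb and 1 of Gja1. Those of members besides Gfap were small. They lay between −0.12 and 0.059 without the covariate and between −0.17 and 0.013 with it. With the spinal cord covariate Gfap was at 0.62 for cyclophosphamide and 0.74 for dexamethasone on day 2, −0.41 for CVAD on day 8 and 0.049 for dexamethasone over both days. Without the 4 libraries richest in spinal cord genes it was at 0.12 for dexamethasone on day 2 and 0.087 over both days. With 1 library left out it ran from −0.098 to 1.17 for CVAD on day 8, from −0.95 to 0.74 for cyclophosphamide on day 8 and from −0.17 to 0.59 for CVAD over both days. The libraries whose omission turned it were saline day 8 replicate 2 in the first, cyclophosphamide replicate 1 or saline replicate 1 in the next, and CVAD day 2 replicate 1, saline day 2 replicate 1 or saline day 8 replicate 2 in the last. The cause was not tested. The median over the members moved by more than its spread only for vincristine on day 8, with a range of −0.049 (without vincristine replicate 3) to 0.12 (without saline replicate 1) around 0.023.

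The number of all genes called, the background of these counts, was less stable. It was 11 for CVAD on day 2, 98 with library weights and 0 with protein-coding genes alone, and for the CVAD response 21, 86 with library weights and 1 with a term for libraries 1 to 8. That term can be estimated only within dexamethasone day 2, against 1 library. For cyclophosphamide on day 2 it was 3 and 50 with library weights, for its response 0 and 42, for the F test 0 and 40, and for the 4 arms between days 4 and 22. In the other comparisons it was 0 to 10 under every setting.

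Over the settings the log2 fold change of Gja1 on day 8 was 0.18 to 0.24 for CVAD and 0.19 to 0.31 for doxorubicin, with adjusted p of at least 0.548 and 0.753. Some estimates of the 8 members besides Gfap went beyond the −0.22 to 0.28 of the main model. Cdh19 in CVAD on day 2 reached 0.40 over the settings. With the spinal cord covariate, Ednrb in doxorubicin on day 8 was at 0.31 ± 0.16 and Fabp7 in CVAD on day 2 at −0.25 ± 0.14. No paired analysis was possible because the labels number no replicates across groups and the numbers used here follow the order of deposit. With TPM and no read counts, the counting error of low genes such as Gfap could not be computed.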
